A study of Mus musculus with 2 samples.

Results

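The complement genes described here are C1qa, C1qb, C1qc, C3, C3ar1, C5ar1, Itgam, Cd55, Cd59a and Csmd1. They were found by gene symbol in both count tables and are 10 of the 32285 features listed. Complement is a cascade of proteins that tags surfaces for removal. C1q, built from the chains of C1qa, C1qb and C1qc, starts the classical pathway, and cleavage of C3 leaves fragments on the tagged surface and releases a small peptide. C3ar1 and C5ar1 are the receptors of the small peptides of C3 and C5, and Itgam is the alpha chain of complement receptor 3, which binds tagged surfaces. Cd55 takes apart the enzymes that cleave C3, Cd59a blocks the membrane attack complex, and Csmd1 is a large membrane protein whose rat and human forms inhibit complement. In the developing brain, C1q, C3 and complement receptor 3 are known for the removal of synapses by microglia.

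The cells came from brains of C57BL/J mice at postnatal day 10, with no treatment, no mutation and no sorting named in the labels. Both libraries, replicates 1 and 2, belong to this 1 group, and the 6 mice of the study are not tied to a library. Transcripts were counted at their 3' ends as unique molecular identifiers (UMIs) with droplet-based single-cell sequencing. The comparisons are therefore between cell classes. Their p-values measure only the spread left between 2 libraries once the overall library difference is removed. This spread is pooled over all classes of the fit and may be technical.

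Library 1 held 51452085 UMIs in 12978 barcodes and library 2 held 45532691 UMIs in 19508 barcodes. After quality limits and removal of called doublets, 11992 and 14121 cells remained. Cells were grouped into 32 clusters without using any complement gene, and 12 classes, named from markers, had at least 30 cells in each library. Library 2 stood apart in depth and in composition. Its median barcode held 1470 UMIs, against 3446 in library 1, and 34.5% of its cells (1.03% in library 1) fell in clusters left unnamed. Microglia-like cells made up 13.8% of library 2 and 0.792% of library 1, 1947 and 95 cells, and border macrophage-like cells numbered 168 and 44. The largest of the 3 microglia-like clusters had stress and immune genes such as Gdf15, Ccl3 and Ccl4 among its leading genes. The neuroblast-like class included a cluster with the interneuron genes Gad1 and Gad2 among its leading genes, and a shallow cluster of 125 cells of library 2 led by Sst and Npy stayed unnamed, so no class of inhibitory neurons entered the tests. The libraries shared 90 barcode sequences. Levels are given as CPM, the UMIs of a gene per 1000000 UMIs of its class in 1 library.

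C1qa, C1qb and C1qc lie next to each other on the minus strand of chromosome 4 (mm10, GENCODE M21), at chr4:136895917-136898803 for C1qa, chr4:136880129-136886187 for C1qb and chr4:136889804-136893065 for C1qc. The 3 genes span 18675 bp with no other annotated gene between them. Itgam lies at chr7:128062640-128118491 on the plus strand. The 250 bases before the starts of C1qb and Itgam are shown because both genes were high in the myeloid classes and low elsewhere. They are from RefSeq (GRCm38.p6), 5′ to 3′ on the strand of the gene, at chr4:136886201-136886450 and chr7:128062390-128062639. Capitals mark the 6 letters GAGGAA, the core read by factors of the PU.1 type, or its reverse complement TTCCTC.
C1qb: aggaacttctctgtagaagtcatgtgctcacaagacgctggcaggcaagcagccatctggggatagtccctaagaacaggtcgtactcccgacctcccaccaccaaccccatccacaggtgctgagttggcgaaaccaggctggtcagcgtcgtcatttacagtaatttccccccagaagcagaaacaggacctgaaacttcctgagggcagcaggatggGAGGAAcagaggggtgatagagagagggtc
Itgam: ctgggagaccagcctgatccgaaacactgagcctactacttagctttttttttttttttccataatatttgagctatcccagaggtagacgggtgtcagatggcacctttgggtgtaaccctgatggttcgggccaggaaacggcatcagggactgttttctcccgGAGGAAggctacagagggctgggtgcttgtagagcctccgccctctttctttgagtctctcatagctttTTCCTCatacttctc
The match began 30 bases before the start in C1qb, and 84 and 15 bases before it in Itgam. Of 8 complement genes with an entry, 4 held the letters on either strand in this window (C1qb, C1qc, Itgam and Cd59a), against 23.3% of 32851 promoters. Cd59a, which is not a myeloid gene in these data, was among the 4. C1qa and Csmd1 are named only. A match is a run of letters and was not tested as a site.

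C1q was by far the most abundant of these products, and of the 12 classes border macrophage-like and microglia-like cells alone had it at high levels. C1qa reached 5476 CPM in library 1 and 4917 CPM in library 2 in border macrophage-like cells, and 3848 and 3605 CPM in microglia-like cells. C1qb reached 4648 and 4434 CPM in border macrophage-like cells, and 4334 and 4099 CPM in microglia-like cells. C1qc reached 4702 and 4059 CPM in border macrophage-like cells, and 3896 and 3520.3 CPM in microglia-like cells. The chains together made up 1.48% and 1.34% of all UMIs of border macrophage-like cells and 1.21% and 1.12% of those of microglia-like cells. They ranked between 14 and 27 among all features in border macrophage-like cells and between 26 and 48 in microglia-like cells.

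**Figure D1:**
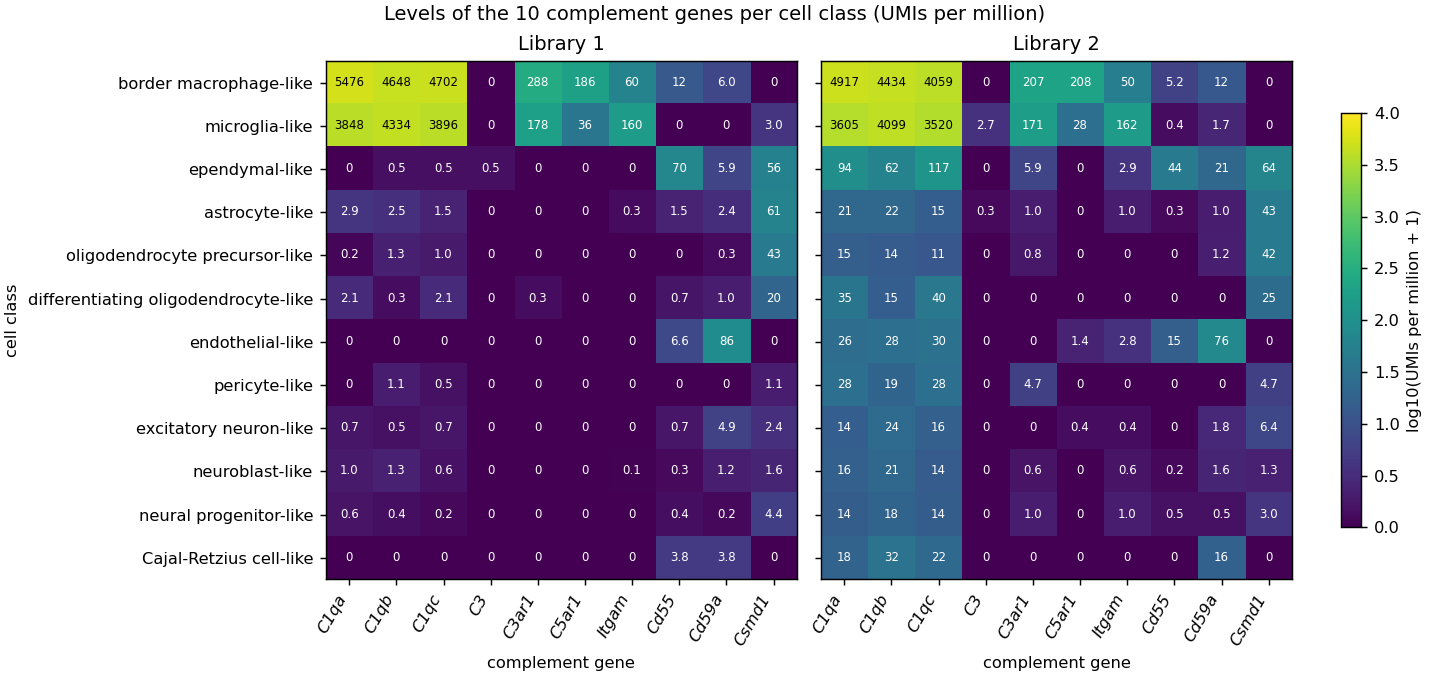
Levels of the 10 complement genes in the 12 cell classes of library 1 and library 2, with colour for log10(CPM + 1) and the CPM printed in each cell. The C1q chains, C3ar1, C5ar1 and Itgam are high in the 2 myeloid classes at the top, Cd55 in ependymal-like cells, Cd59a in endothelial-like cells and Csmd1 in ependymal-like cells, astrocytes and the oligodendrocyte lineage.

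The balance of the chains differed between both myeloid classes, in the same way in each library. C1qa gave 36.9% (95% Clopper-Pearson interval 35.0 to 38.9) of C1q UMIs in border macrophage-like cells of library 1 and 36.7% (35.7 to 37.6) in library 2. In microglia-like cells it gave 31.9% (30.4 to 33.3) and 32.1% (31.8 to 32.4). C1qb was thus the leading chain in microglia-like cells and C1qa in border macrophage-like cells. C1qb had 0.849 (0.770 to 0.935) and 0.902 (0.861 to 0.945) UMIs per C1qa UMI in border macrophage-like cells and 1.13 (1.04 to 1.22) and 1.14 (1.12 to 1.15) in microglia-like cells. The intervals of the classes do not overlap in either library. They cover counting error only, and the levels of chains are counts of 3' ends, not amounts of protein.

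Nearly every border macrophage-like and microglia-like cell carried C1q. With each cell thinned to 1000 UMIs, all 3 chains were seen in 93.0% (80.9 to 98.5) and 92.2% (87.1 to 95.8) of border macrophage-like cells and in 90.2% (82.2 to 95.4) and 88.6% (87.1 to 90.0) of microglia-like cells of libraries 1 and 2. No thinned cell of either class lacked all chains, which for the 1926 microglia-like cells of library 2 allows a share of up to 0.156%. In neuroblast-like cells, taken as cells that should lack C1q, at least 1 chain was missing in all but 2 of 3860 thinned cells of library 2. All chains were missing in 3680 of them (95.3%), so the rest showed at least 1 chain. The median depths before thinning were 3675 UMIs in microglia-like and 1976 UMIs in neuroblast-like cells of that library. A C1q-free microglial subset was not detectable at this depth.

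In the 10 non-myeloid classes of the tests C1q was low and followed the library. The summed C1q level of the 10 non-myeloid classes ran from 0 to 6.91 CPM (median 1.78) in library 1 and from 39.8 to 273 CPM (median 64.6) in library 2. That is a median of 0.0147% and 0.575% of the microglia-like level of the same library. UMIs of the microglial markers Cx3cr1, P2ry12, Siglech and Fcrls, 4 genes picked after their levels were seen, moved with it. They had a median of 0.764 CPM in the non-myeloid classes of library 1 and 19.6 CPM in those of library 2. There were 2.51 and 3.37 C1q UMIs per marker UMI in the non-myeloid classes of libraries 1 and 2, against 3.01 and 3.01 in microglia-like cells. By class this ratio ran from 1.44 to 4 in library 1 and from 1.6 to 9.8 in library 2. The source of these UMIs was not tested, and no difference in C1q among neurons, glia and vessel cells is read from them. Cells of the unnamed clusters carried more. In library 2 the 4869 unnamed cells, with a median of 980 UMIs, had 923 CPM of C1qa, 1076 CPM of C1qb and 929.8 CPM of C1qc, and held 13.3%, 13.9% and 13.9% of the UMIs of these chains in the library. The 123 unnamed cells of library 1 held 1.31%, 1.46% and 1.07%.

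**Figure D2:**
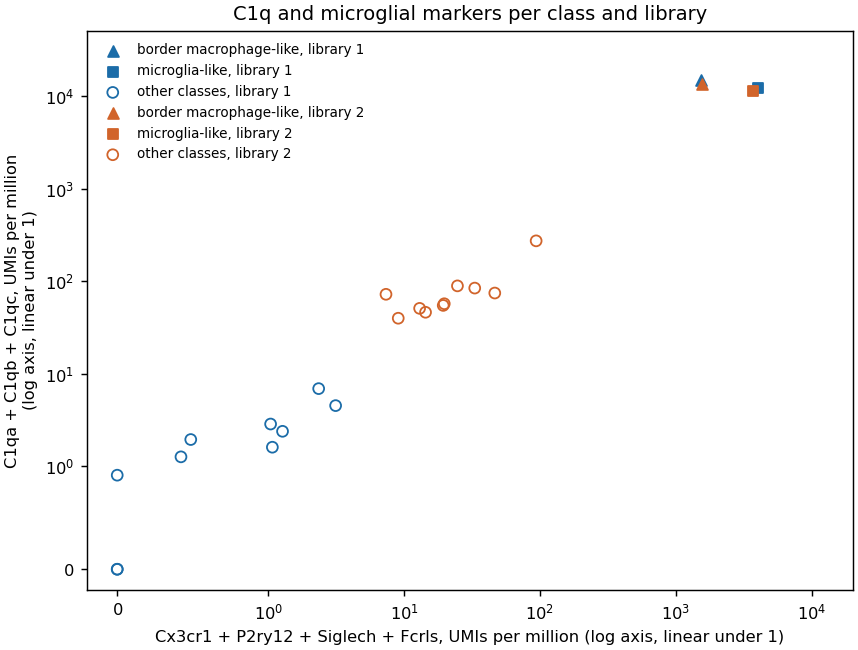
Summed CPM of C1qa, C1qb and C1qc against the summed CPM of 4 microglial markers, 1 point per class and library, on log axes that are linear under 1. The 10 non-myeloid classes sit between 0 and 6.91 CPM of C1q in library 1 and between 39.8 and 273 CPM in library 2, along the same course as the marker sum.

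C3, the hub of the cascade, was nearly absent. Library 1 held 1 of its UMIs and library 2 held 48. In microglia-like cells it had 0 CPM in library 1, which allows up to 8.89 CPM, and 2.66 CPM in library 2, from 22 UMIs. Border macrophage-like, endothelial-like, pericyte-like and all neuronal classes had none in either library, and astrocyte-like and ependymal-like cells had 1 UMI each. The highest level was that of a cluster led by the neutrophil genes S100a8, S100a9 and Camp, with 54.4 CPM from 15 UMIs in 85 cells of library 2, and 0 UMIs in its 10 cells of library 1. C3 did not pass the filter on low counts, so no test was made.

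The receptors of the peptides were split between both myeloid classes. C3ar1 had 288 and 207 CPM in border macrophage-like cells and 178 and 171 CPM in microglia-like cells, and at most 5.86 CPM in any other class. C5ar1 had 186 and 208 CPM in border macrophage-like cells and 35.5 and 28.3 CPM in microglia-like cells, and at most 1.38 CPM elsewhere. Both C5ar1 values of border macrophage-like cells lie well above both of microglia-like cells.

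Itgam went the other way. It had 60.05 and 49.7 CPM in border macrophage-like cells and 160.0 and 162 CPM in microglia-like cells, with at most 2.93 CPM in the other classes. It was the single complement gene with a higher level in microglia-like than in border macrophage-like cells in both libraries. Its partner chain Itgb2 had 18.0 and 15.7 CPM in border macrophage-like cells and 29.6 and 27.6 CPM in microglia-like cells.

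In the comparison of border macrophage-like with microglia-like cells, 9 of the 10 complement genes could be tested, with edgeR's quasi-likelihood test over 13800 genes. Calls needed an adjusted p below 0.05, a log2 difference of 1 or more either way and 1 direction in both libraries. Of all genes, 6.36% were called, 2.62% higher and 3.73% lower in border macrophage-like cells, beside 3 higher and 1 lower of the 9. C5ar1 rose by 2.56 on the log2 scale (SE 0.28, adjusted p = 7.26e-17), averaging 197 ± 15.5 CPM in border macrophage-like and 31.9 ± 5.10 CPM in microglia-like cells (SD, n = 2 libraries). Itgam fell by 1.87 (SE 0.29, adjusted p = 8.86e-09), with 54.9 ± 7.29 CPM in border macrophage-like and 161 ± 1.28 CPM in microglia-like cells. C1qa (0.30, SE 0.19, adjusted p = 0.402), C1qc (0.05, SE 0.19, adjusted p = 0.958) and C3ar1 (0.23, SE 0.23, adjusted p = 0.674) were not called, nor was Csmd1, which had 0 UMIs in border macrophage-like and 1 UMI in microglia-like cells. C1qb was not called either (-0.10, SE 0.19, adjusted p = 0.880), and its sign turned to 0.08 with size factors of the DESeq2 kind, which moved the median gene by 0.25. With DESeq2 the C5ar1 difference was as large (2.53) and not called (adjusted p = 0.946). No cause of that difference was tested.

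The surface regulators Cd55 and Cd59a were scarce in both myeloid classes and higher in border macrophage-like cells. Of the 13 further soluble and surface regulators tested, none was called in either direction. Cd55 had 12.01 and 5.24 CPM in border macrophage-like cells and 0 and 0.363 CPM in microglia-like cells. Cd59a had 6.00 and 11.8 CPM in border macrophage-like cells and 0 and 1.70 CPM in microglia-like cells. Both were called higher in border macrophage-like cells by edgeR (Cd55 3.71, SE 1.09, adjusted p = 0.0115; Cd59a 2.43, SE 0.73, adjusted p = 0.0152). The Cd55 call rests on 6 UMIs in border macrophage-like and 3 UMIs in microglia-like cells, a ratio of 18.5 with a counting interval from 3.95 to 114. The Cd55 call was lost with stricter quality limits (2.72, adjusted p = 0.159). The Cd59a call rests on 10 UMIs in border macrophage-like and 14 UMIs in microglia-like cells over both libraries. The counting interval of its ratio runs from 2.62 to 15.97. In library 1 these were 1 UMI in border macrophage-like and 0 UMIs in microglia-like cells, so the direction of Cd59a in that library is uncertain.

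**Figure D3:**
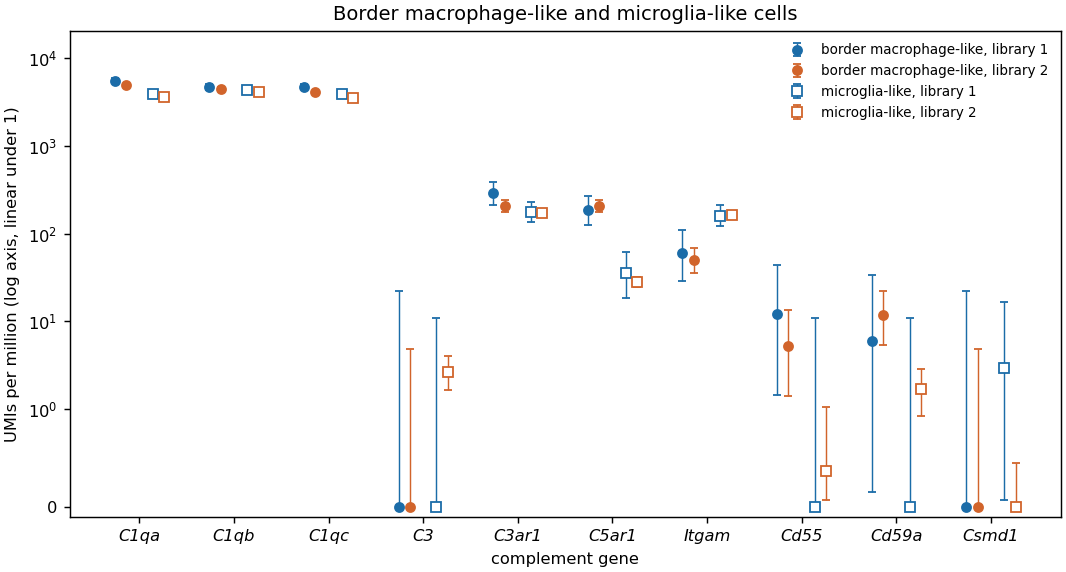
CPM of the 10 complement genes in border macrophage-like cells (filled circles) and microglia-like cells (open squares) of libraries 1 and 2, on a log axis that is linear under 1, with exact 95% Poisson intervals. The C1q chains lie close together, C5ar1 is higher and Itgam lower in border macrophage-like cells.

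Some genes of the rest of the pathway also set the border macrophage-like cells apart from microglia-like cells. Of 53 further complement genes in 6 lists, 31 could be tested, of which 6 rose, 2 fell and 23 were not called. Of all genes, 2.62% rose and 3.73% fell. Their median log2 fold change was -0.02, beside -0.24 for all genes tested. The lectin pathway gave 2 of 3 tested genes higher. Fcna, encoding the ficolin that recognises sugars on microbes, had 498 and 416 CPM in border macrophage-like and 8.89 and 6.90 CPM in microglia-like cells (5.66, SE 0.31, adjusted p = 2.13e-70 by edgeR). Colec12, a scavenger receptor with a collectin domain, had 126 and 128 CPM against 2.96 and 4.72 CPM. Both tested genes of the alternative pathway were higher in border macrophage-like cells. Cfp, encoding properdin, which stabilises the C3-cleaving enzyme, had 168 and 171 CPM in border macrophage-like cells and 0 and 0.848 CPM in microglia-like cells. Cfb, encoding factor B, the protease of that enzyme, had 30.02 and 7.85 CPM in border macrophage-like cells and 0 and 1.33 CPM in microglia-like cells (2.85, SE 0.89, adjusted p = 0.0203 by edgeR).

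The classical pathway gave 2 of 4 tested genes higher in border macrophage-like cells, beside 2.62% of all genes. C2 had 114 and 98.2 CPM in border macrophage-like and 2.96 and 5.21 CPM in microglia-like cells, and C4b had 48.0 and 28.8 CPM against 0 and 1.09 CPM. C4b has a near-identical neighbour, C4a, and reads of the pair are uncertain. Of 7 tested receptors and partners, 2 fell, beside 3.73% of all genes. Itgax, the alpha chain of complement receptor 4, had 0 and 0 CPM in border macrophage-like cells and 5.92 and 12.5 CPM in microglia-like cells. Library 1 held 3 UMIs of Itgax over all its cells, too few to show a difference there. Lrp1, a large endocytic receptor, had 48.0 and 66.8 CPM in border macrophage-like cells and 349.6 and 252 CPM in microglia-like cells.

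Against the mean of all 11 other classes, microglia-like cells had 6 of the 9 tested complement genes higher and none lower, while 14.7% of all genes were called higher and 9.36% lower. The reference contains the border macrophage-like class, so the CPM ratios were modest for the genes both classes share. C1qa averaged 3727 ± 172 CPM in microglia-like cells and 485 ± 18.5 CPM over the other classes (SD, n = 2 libraries), a ratio of 7.68, and C1qb and C1qc had ratios of 9.93 and 8.99. On the log scale of edgeR's test, where each class counts alike, C1qa was higher by 8.65 (SE 0.12), C1qb by 8.85 (SE 0.12) and C1qc by 8.65 (SE 0.12). Their adjusted p-values were too small for the software and came out as 0.

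C3ar1 averaged 174 ± 5.04 CPM in microglia-like cells and 23.2 ± 4.36 CPM over the other classes (adjusted p = 1.51e-292 by edgeR). C5ar1 averaged 31.9 ± 5.10 CPM in microglia-like cells and 18.0 ± 1.52 CPM over the others (adjusted p = 4.19e-81 by edgeR), and was not called with DESeq2 (adjusted p = 0.227). Itgam averaged 161 ± 1.28 CPM in microglia-like cells and 5.40 ± 0.130 CPM over the others, a ratio of 29.8 (adjusted p = 1.47e-284 by edgeR). Some of the other classes had no UMI of these receptors in either library, so fitted fold changes are not given. These p-values are for the mean of the class log levels, which such classes pull down, and do not test the CPM averages. Within the reference, border macrophage-like cells averaged 197 CPM of C5ar1, above microglia-like cells. When all other classes were given 1 shared level, a model added after the data were seen in which their differences count as spread, Itgam alone of the 6 was still called (adjusted p = 0.0273). C1qa, C1qb, C1qc, C3ar1 and C5ar1 then had adjusted p-values of 0.404, 0.343, 0.361, 0.340 and 0.782.

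Of the 31 wider genes tested, 7 were higher and 6 lower in microglia-like cells than in the mean of the others. This stands beside 14.7% and 9.36% of all genes, and the median was 0.09 beside 0.06 for all genes. C5ar2, the other receptor of C5a, had 29.6 and 22.5 CPM in microglia-like cells and 1.69 and 1.79 CPM over the others. The regulators Csmd2, Sez6 and Clu were among the 6 lower genes.

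Microglia-like cells were not uniform. They fell into 11 sub-clusters, drawn without complement genes, which are described here for library 2 only because library 1 had 1 to 24 cells in each. Itgam varied most. It ran from 64.0 CPM (46.3 to 86.2) in a sub-cluster led by the division genes Cdkn3 and Ccnb2 to 362 CPM (306 to 424) in one led by Nol4l, Egr1 and Hspb1. A second dividing sub-cluster, led by histone genes, had 102 CPM (87.4 to 118), and another, led by the replication genes Ccne2, Dtl and Lig1, had 151 CPM (117 to 192). C3ar1 ran from 69.5 CPM (39.7 to 113) to 257 CPM (219 to 301), and its highest value was in the sub-cluster led by Gpnmb and Spp1, genes of phagocytic microglia. That sub-cluster had 100.3 CPM (76.9 to 129) of Itgam, below the median.

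The C1q chains varied less among the same sub-clusters. Over both libraries C1qb ran from 2941 to 5277 CPM, a ratio of 1.79, while Itgam spanned a ratio of 5.53 and C3ar1 a ratio of 3.61. The lowest C1qb value was that of a sub-cluster with neuronal, glial and globin genes (Sox11, Ptprz1 and Hbb-bt) among its leading genes, so mixed droplets stand beside that value and their part was not tested. Without that sub-cluster the lowest C1qb value was 3360.2 CPM. Intervals cover counting error only, and sub-clusters of 1 library are not replicates.

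**Figure D4:**
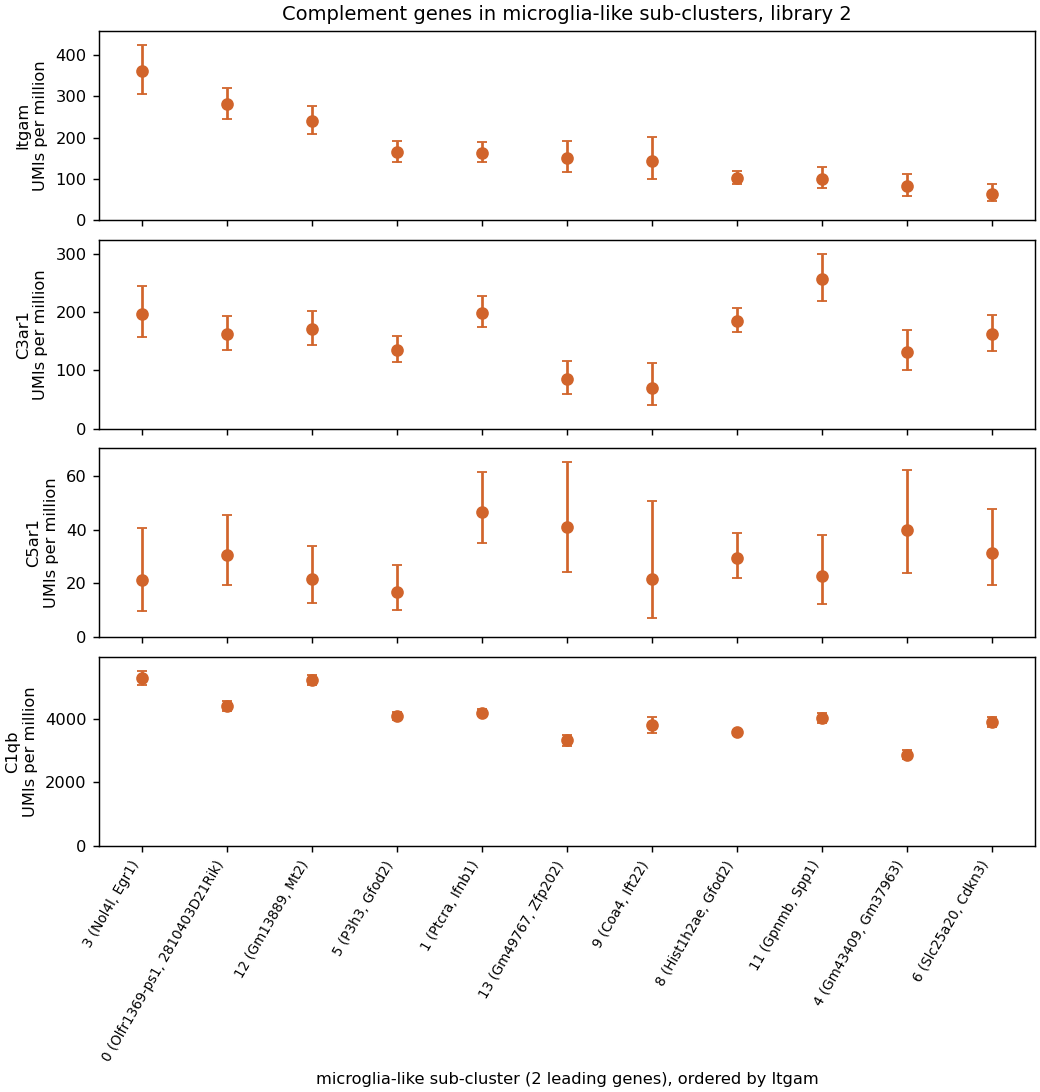
CPM of Itgam, C3ar1, C5ar1 and C1qb in the 11 microglia-like sub-clusters of library 2, ordered by Itgam, with exact 95% Poisson intervals. Itgam runs from 362 to 64.0 CPM, C3ar1 peaks at 257 CPM in the sub-cluster led by Gpnmb and Spp1, and of these 4 genes C1qb changes least.

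Of the 12 classes of the fit, ependymal-like cells, the ciliated lining of the ventricles, had the most Cd55. It had 69.9 CPM in library 1 and 44.0 CPM in library 2 there, against 6.62 and 15.2 CPM in endothelial-like cells and at most 12.01 CPM in any other of the 12 classes. Averages were 56.9 ± 18.4 CPM in ependymal-like cells and 1.68 ± 0.164 CPM over the other non-myeloid classes (SD, n = 2 libraries), a ratio of 34.0 (adjusted p = 3.68e-92 by edgeR). The call held with 1 shared level for the reference (adjusted p = 0.00270). This comparison was added after the data were seen, and 23.9% of all genes were called higher in it. Cd55b, the second Cd55 gene of the mouse, lies 16017 bp from Cd55 on chromosome 1 and had 2.74 and 2.93 CPM in ependymal-like cells. The counting could split reads of such pairs, so the values of each are uncertain. Beyond the classes of the test, Cd55 had 39.4 CPM from 12 UMIs in fibroblast-like cells of library 1, and 173 and 32.6 CPM from 4 and 9 UMIs in neutrophil-like cells. A myeloid sub-cluster of 4 and 27 cells led by the B-cell genes Igkc and Cd79a had 133 CPM (68.5 to 232) over both libraries, from 12 UMIs, above the ependymal-like level.

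Both tested genes of the terminal pathway were higher there. Hc, encoding C5, had 34.3 and 26.4 CPM in ependymal-like cells and no UMI in 7 of the 9 reference classes. C8g, a subunit of C8, had 14.2 and 8.79 CPM in ependymal-like cells and 1.03 and 1.06 CPM over the others. Of the 13 tested regulators, 4 were higher and 3 lower. Cd59b, the neighbour of Cd59a, had 48.9 and 52.7 CPM in ependymal-like cells and 1.11 and 1.18 CPM over the others, and Clu, encoding the terminal-pathway inhibitor clusterin, had 858 and 753 CPM against 111 and 58.8 CPM. In all, 8 of 31 wider genes were higher and 5 lower, with a median of 0.08 beside 0.07 for all genes, while 23.9% of all genes were called higher and 11.1% lower, so the count higher is near that of all genes. Ependymal-like cells of library 2 also had the highest C1q level of the non-myeloid classes (273 CPM) and the highest of microglial markers (93.8 CPM).

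Among the named vessel classes, Cd59a was highest in endothelial-like cells. Endothelial-like cells had 86.1 and 75.9 CPM, pericyte-like cells 0 and 0 CPM, and smooth muscle-like cells, too few for the test, 19.9 and 21.5 CPM from 7 UMIs and 1 UMI. A count of 0 in pericyte-like cells allows up to 1.61 CPM in library 1 and 13.96 CPM in library 2. An unnamed shallow cluster with endothelial genes such as Tie1 and Kdr, of 2 and 359 cells, had less than the endothelial-like class. Its level was 20.7 CPM (9.45 to 39.2) over both libraries, from 9 UMIs. Of the 12 classes, next in order were ependymal-like cells with 5.94 and 20.5 CPM and Cajal-Retzius cell-like cells with 3.84 and 16.2 CPM, whose ranges overlap. Averages were 81.0 ± 7.18 CPM in endothelial-like cells and 3.47 ± 1.81 CPM over the other non-myeloid classes (SD, n = 2 libraries), a ratio of 23.3 (adjusted p = 2.07e-88 by edgeR, and 0.000828 with 1 shared level for the reference). It was 1 of 9 tested complement genes called higher in endothelial-like cells, beside 13.2% of all genes. Cd55 had 6.62 and 15.2 CPM there and was not called, because in library 1 the mean of the other classes was higher.

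With cells thinned to 1000 UMIs, Cd59a was seen in 8.41% (3.92 to 15.4) and 5.43% (2.21 to 10.9) of endothelial-like cells and in 0% of pericyte-like cells, which allows a share of cells with a UMI at that depth of up to 0.658% in library 1 and 5.36% in library 2. Before thinning the endothelial shares were 38.7% and 29.8%. Of the wider genes, Cr1l alone was higher in endothelial-like cells. Cr1l, known as Crry, a broad inhibitor of C3 cleavage in the mouse, had 106 and 88.3 CPM in endothelial-like cells and 27.2 and 23.1 CPM over the others. Lower were 5 of the 31 wider genes, beside 13.2% of all genes (median -0.98 beside -0.22 for all genes).

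Pericyte-like cells had no complement gene of the 10 higher, beside 12.7% of all genes, although C1qb was called higher at a Leiden resolution of 2 (3.38, adjusted p = 8.69e-38 by edgeR). Cd59a was the 1 gene of 9 called lower, beside 10.3% of all genes (adjusted p = 0.00882 by edgeR), with 0 CPM in both libraries against 12.5 ± 1.01 CPM over the other non-myeloid classes. That call was lost with DESeq2 (adjusted p = 0.0711), with doublets kept (0.943), at a Leiden resolution of 0.5 (0.938) or 2 (0.0509), with 4000 variable genes (1) and with 1 shared level for the reference (0.375). Of the 13 soluble and surface regulators tested, 4 were higher and 3 lower. Vtn, encoding vitronectin, which binds the forming membrane attack complex, had 4895 and 5155 CPM in pericyte-like cells and 5.72 and 0.964 CPM over the others. C1s1, encoding the protease C1s, had 9.66 and 9.31 CPM in pericyte-like cells and 0.267 and 0.164 CPM over the others, and Colec12 had 162 and 158 CPM against 3.61 and 2.31 CPM. In all, 7 of 31 wider genes were higher and 3 lower (median 0.04 beside -0.10 for all genes).

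Csmd1 was a gene of glia in these brains. It had 55.8 and 64.5 CPM in ependymal-like cells, 61.2 and 43.3 CPM in astrocyte-like cells, 42.7 and 41.8 CPM in oligodendrocyte precursor-like cells and 19.5 and 24.7 CPM in differentiating oligodendrocyte-like cells. Ependymal-like and astrocyte-like cells did not differ beyond their ranges, and in library 2 astrocyte-like and oligodendrocyte precursor-like cells had nearly the same level, with overlapping counting intervals (37.1 to 50.2 and 34.2 to 50.5 CPM). Oligodendrocyte precursor-like cells lay above differentiating oligodendrocyte-like cells in both libraries. In library 2 the latter value rests on 5 UMIs in 30 cells, so the difference there is uncertain. Excitatory neuron-like cells had 2.44 and 6.35 CPM and neuroblast-like cells 1.56 and 1.32 CPM. No UMI was found in endothelial-like, border macrophage-like or Cajal-Retzius cell-like cells, and 1 UMI in microglia-like cells.

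Csmd1 was called higher against the mean of the other non-myeloid classes in each of the 3 glial comparisons. Astrocyte-like cells averaged 52.2 ± 12.6 CPM and their reference 15.2 ± 1.47 CPM (SD, n = 2 libraries; adjusted p = 3.17e-69 by edgeR). Oligodendrocyte precursor-like cells averaged 42.2 ± 0.677 CPM and their reference 16.3 ± 0.143 CPM (adjusted p = 9.75e-48 by edgeR). Ependymal-like cells averaged 60.1 ± 6.15 CPM and their reference 14.3 ± 0.616 CPM (adjusted p = 4.10e-40 by edgeR). The references contain the other Csmd1-rich glia, and with 1 shared level for them the adjusted p-values were 0.996, 1 and 0.370. In these comparisons 11.6%, 10.3% and 23.9% of all genes were called higher and 2.8%, 3.12% and 11.1% lower, while no complement gene of the 9 was called lower.

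Over class means, which held no class of inhibitory neurons, neurons had less Csmd1 than glia. The mean of excitatory neuron-like and neuroblast-like cells was 1.999 CPM in library 1 and 3.84 CPM in library 2, against 51.9 and 42.5 CPM for the mean of astrocyte-like and oligodendrocyte precursor-like cells. The log2 fold change was -4.16 (SE 0.20, adjusted p = 9.12e-94 by edgeR), and the call held with 1 shared level for each side (-4.08, adjusted p = 0.00350). It was the 1 complement gene of 9 called lower in neurons, beside 15.7% of all genes, and 24.9% of all genes were called in either direction. Cd59a was called higher in neurons, beside 9.16% of all genes, at 2.36 ± 0.937 CPM in neurons and 1.21 ± 0.173 CPM in glia (adjusted p = 0.0126 by edgeR). That call was lost with DESeq2 (adjusted p = 0.0840) and with 1 shared level for each side (adjusted p = 0.338). In edgeR fits it was also lost with stricter quality limits (adjusted p = 0.0772), doublets kept (0.127), a Leiden resolution of 2 (0.110) and 4000 variable genes (0.113). At a Leiden resolution of 0.5 the log2 fold change was 0.994, under the limit for a call, and a log2 threshold of 2 also removed the call. The neuroblast-like class held 2 clusters with more leading markers of another class than of its own, one led by histone genes with 0 neuroblast and 1 neural progenitor marker among its 10 leading genes (1272 and 537 cells), and the one with Gad1 and Gad2 (1591 and 1737 cells). With both left out, an alternative added after the data were seen, Csmd1 had 1.74 and 3.44 CPM in neurons and 51.9 and 42.5 CPM in glia (-4.58, adjusted p = 4.76e-111 by edgeR).

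Within classes Csmd1 was uneven. An astrocyte-like cluster led by Ttr, Crym and Aldoc had 111 CPM (99.1 to 125) in library 1 and 94.7 CPM (71.3 to 123) in library 2. The astrocyte-like cluster led by Aqp4, Myoc and Gfap had 40.3 CPM (33.3 to 48.4) and 39.1 CPM (31.2 to 48.3). Another, with the division genes Cdc20, Aspm and Plk1 among its leading genes, had 3.83 CPM (1.24 to 8.93) and 26.6 CPM (18.3 to 37.3), so here the libraries did not overlap. The first of these clusters had 709 cells in library 1 and 163 in library 2, and it carried Ttr, a choroid plexus marker, as its leading gene. It held 297 of the 416 Csmd1 UMIs of astrocyte-like cells in library 1 and 55 of 173 in library 2. Its marker score, a mean log2 ratio over each list, was 2.85 for astrocytes and 2.71 for choroid plexus. The other astrocyte-like clusters were not above the 42.7 and 41.8 CPM of oligodendrocyte precursor-like cells. The place of the astrocyte-like class above those cells thus rests on this cluster.

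The excitatory neuron-like class held a similar contrast. Its cluster led by Neurod6 and Unc5d had 11.1 CPM (4.47 to 22.9) and 29.4 CPM (17.1 to 47.1) of Csmd1. Its cluster led by Gal, Calb2 and Neurod1 had 0.863 CPM (0.178 to 2.52) and 0.443 CPM (0.0112 to 2.47). The intervals of both clusters were apart in each library. The smaller oligodendrocyte precursor-like cluster had 33.1 CPM (22.6 to 46.7) and 27.3 CPM (16.4 to 42.7). In library 2 the cluster led by Neurod6 and Unc5d thus reached the level of that glial cluster. Outside the classes, the shallow unnamed cluster led by Sst and Npy had 19.5 CPM (5.32 to 49.95) of Csmd1, from 4 UMIs. The 4 neuroblast-like clusters had between 0 and 2.14 CPM, and the value of 2.14 CPM was that of the cluster led by histone genes.

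**Figure D5:**
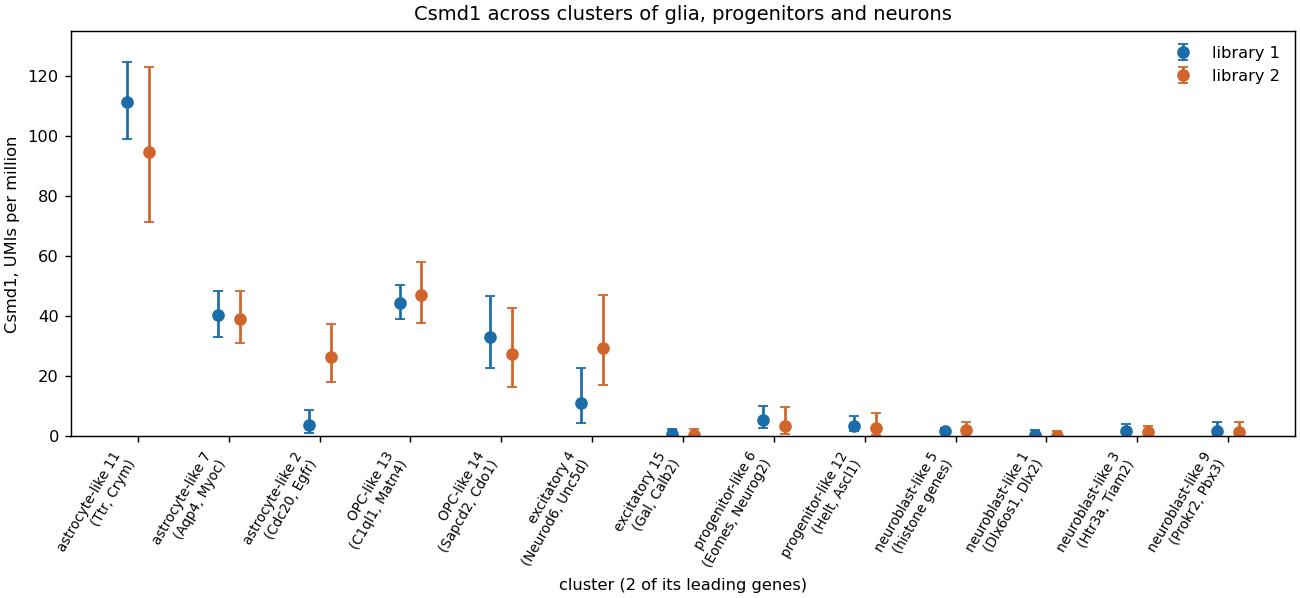
Csmd1 CPM in clusters of astrocyte-like, oligodendrocyte precursor-like (OPC-like), excitatory neuron-like, neural progenitor-like and neuroblast-like cells, by library, with exact 95% Poisson intervals. The astrocyte-like cluster led by Ttr and Crym is highest at 111 and 94.7 CPM, and the neuroblast-like clusters are at or below 2.14 CPM.

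The relatives of Csmd1 were spread differently over the same cells. Csmd3 had 76.5 and 78.8 CPM in oligodendrocyte precursor-like cells and was among 4 of 13 regulators called higher there, with Susd4, Sez6l and Csmd2. Csmd2 had 27.3 and 27.3 CPM in astrocyte-like cells and 31.1 and 32.3 CPM in oligodendrocyte precursor-like cells. Across the astrocyte-like clusters led by Ttr and by Aqp4, where Csmd1 differed, Csmd2 had 29.2 and 36.1 CPM in the cluster led by Ttr and 29.4 and 30.4 CPM in that led by Aqp4. Csmd1 covers 1643050 bp of chromosome 8 and overlaps several antisense and short transcripts, so its counts are uncertain to that extent.

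Astrocyte-like cells had 7 of 31 wider genes higher and 1 lower, beside 11.6% and 2.8% of all genes (median 0.33 beside 0.12 for all genes). Clu had 889 and 439 CPM in astrocyte-like cells and 108 and 93.8 CPM over the other non-myeloid classes, C4b had 25.0 and 9.26 CPM against 0.657 and 1.66 CPM, and Megf10, an engulfment receptor of astrocytes, had 26.8 and 21.3 CPM against 2.58 and 3.61 CPM. Oligodendrocyte precursor-like cells had 6 higher and none lower, beside 10.3% and 3.12% of all genes (median -0.09 beside 0.08 for all genes). Among the 6 was Masp1, encoding a protease of the lectin pathway, with 40.3 and 41.8 CPM against 3.98 and 4.37 CPM. In neurons 4 were higher and 10 lower than in glia, beside 9.16% and 15.7% of all genes (median -0.58 beside -0.03 for all genes). The higher ones were Sez6l2, Sez6, Serping1 and Cd59b. Serping1, encoding the inhibitor of C1, had 15.1 and 17.5 CPM in neurons and 1.34 and 1.34 CPM in glia. With 1 shared level for each side its adjusted p was 0.0929, and the call was lost.

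Over the 24 sums of 12 classes and 2 libraries, the genes whose log2(CPM + 1) followed each complement gene most closely outside these lists were sought. P2ry6 (Pearson's r = 0.92) was nearest to C1qa, I830077J02Rik to C1qb (0.92) and P2ry6 to C1qc (0.93). Nckap1l was nearest to C3ar1 (0.99), Phf11b to C5ar1 (0.99) and I830077J02Rik to Itgam (0.99). Rd3 was nearest to Cd55 (0.92), Nos3, the endothelial nitric oxide synthase, to Cd59a (0.85) and Asrgl1 to Csmd1 (0.91). The next genes were Cd48 and I830077J02Rik for C1qa, Cd48 and Cd86 for C1qb, I830077J02Rik and Cd84 for C1qc, Tifab and Myo1f for C3ar1, Slfn8 and Tfec for C5ar1, and A630001G21Rik and Il10ra for Itgam. They were Cdiptos and Fmo5 for Cd55, Itga2b and Podxl for Cd59a, and 4921504A21Rik and Mro for Csmd1. The sums share suspensions and depths, and the values are descriptions.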

How the data were processed

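The authors deposited UMI counts per gene and barcode for 2 libraries of mouse brain, made with Cell Ranger 6.1.2 on mm10, per the submitters' processing notes. From these counts, barcodes were kept that had 500 or more genes and no more than 10% of UMIs from mitochondria. Scrublet removed 626 barcodes of library 1. It marked 0 in library 2, where the highest-scoring barcodes up to 6% of the library, 844, were removed instead. Cells were clustered with Scanpy 1.11.5 (2000 variable genes without the complement lists, ribosomal and mitochondrial genes, 30 principal components, 15 neighbours, Leiden resolution 1). Clusters were named from 21 marker lists, and limits that leave shallow, 1-library or weakly supported clusters unnamed were set after the data were seen.

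UMIs were summed per library and class. CPM is per 1000000 UMIs of the class. Sums of 12 classes entered 1 fit with edgeR 4.0.16 (R 4.3.3; TMM, filterByExpr, quasi-likelihood F test, Benjamini-Hochberg over 13800 genes), with class and library as terms and 11 residual degrees of freedom. Library is a block because classes of 1 library share a suspension. There were 7 planned comparisons and 1 added, ependymal-like cells. A p-value from this fit over classes counts 2 libraries only. Adjusted p-values in the text are from this fit unless DESeq2 (1.42.0) or the shared level is named. Against a mean of classes the fit compares mean log levels, so its p-values do not test the CPM averages given beside them. Intervals are exact at 95%, the limits from a count of 0 are those of 3 counts, and both cover counting error only, since UMIs of 1 cell are not independent samples. The complement genes and the lists were chosen with earlier results of these data known. Of the wider lists, called genes were named, at most 4 per list and comparison by size of change. The 6 wider lists hold 53 genes. Fits on simulated counts were checked first. One gene of the wider lists is not reported here.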

Additional observations from a re-analysis of the deposited data

Results flagged for a closer look

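The unnamed cells and 2 small classes are described here because cells outside the 12 tested classes carried complement UMIs above the level of every non-myeloid class of the tests. The 8 fibroblast-like cells of library 2 had 492 CPM of C1qa, 580 CPM of C1qb and 351 CPM of C1qc, from 28, 33 and 20 UMIs. The 43 fibroblast-like cells of library 1 had 1 UMI of C1qa. The source of these UMIs was not tested. The 85 neutrophil-like cells of library 2 had 102 CPM of C1qb, 54.4 CPM of C3, 32.6 CPM of C5ar1 and 97.9 CPM of Itgam. Their cluster also had the B-cell gene Igkc among its leading genes. The 10 neutrophil-like cells of library 1 had no UMI of C3 and 1 UMI of Itgam. The 4869 unnamed cells of library 2 had 923 CPM of C1qa, 1076 CPM of C1qb and 930 CPM of C1qc, with 1.77 CPM of C3, 56.7 CPM of C3ar1, 12.4 CPM of C5ar1 and 65.7 CPM of Itgam. The 123 unnamed cells of library 1 had 68.1 CPM of C1qa, 77.2 CPM of C1qb and 52.2 CPM of C1qc. Most unnamed cells of library 2 were in 2 clusters of 2116 and 2165 of its cells, with 922 to 1116 CPM of each chain over both libraries, and an unnamed cluster with endothelial genes such as Tie1 and Kdr among its leading genes had 789.8 CPM of C1qb.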

How the results depend on the processing

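Of 72 fold changes of complement genes, 18 were called. Over 999 alternatives, 905 counted as the same, 24 lost a call, 18 gained one, 50 moved and 2 reversed. A called gene counted as the same when its call and direction held, and an uncalled gene when it stayed uncalled, whatever its sign. Fits of 1 library, which make no calls, counted as the same or moved by the size of the shift, unless a called gene changed sign. Only called genes could count as reversed. The reversals were Cd59a in pericyte-like cells, at 0.18 with Leiden resolution 0.5 and 0.023 with 4000 variable genes. A log2 threshold of 2 left 1825 called genes for microglia-like, 419 for border macrophage-like, 2285 for endothelial-like, 1919 for pericyte-like, 956 for astrocyte-like, 874 for oligodendrocyte precursor-like and 2632 for ependymal-like cells and 1507 for neurons, against 3322, 877, 3634, 3168, 1981, 1846, 4828 and 3431. With 1 shared level for the reference, in the same order without border macrophage-like cells, 222, 897, 501, 36, 13, 2144 and 1847 genes were called. Without the library block the counts were 3318, 823, 3601, 3145, 1971, 1826, 4830 and 3441. Fits without replicate 1 or without replicate 2 had no residual degrees of freedom and gave values with no test. For border macrophage-like against microglia-like cells C5ar1 then ran from 2.33 to 2.62, Itgam from -1.96 to -1.47, Cd55 from 3.47 to 8.56 and Cd59a from 2.52 to 7.56, since microglia-like cells of library 1 had no UMI of Cd55 or Cd59a. Depth limits what can be said of C3, Cd55 and Cd59a in small classes. Leaving out both neuroblast-like clusters with more markers of another class, an alternative added after the data were seen, changed no call of a complement gene and left between 901 and 4843 called genes a comparison.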
